A study of Mus musculus with 12 samples.

Results

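The transcription factors described here are 10 genes that direct effector and memory differentiation of CD8 T cells: Tbx21, Eomes, Id2, Id3, Zeb2, Prdm1, Batf, Irf4, Tox and Bhlhe40. They were taken by name from 48709 listed genes, and all 10 were among the 17833 that the authors tested in each comparison. RNA came from CD8 T cells specific for Spas-1, a tumour antigen, in wild type C57BL/6 mice (post natal day 91) that carried the transplantable prostate tumour line TRAMP-C2. Live CD45+CD3+CD8+ cells that were Spas-1+ and Spas-2- were sorted from draining lymph nodes on day 28. The 4 arms differed in the antibody: isotype control in the first, the checkpoint blocker anti-CTLA-4 in the second and anti-PD-1 DANA, named so in the labels, in the third, while the last was given both blockers and is called the combination. The sample labels put the injections on days 3, 6 and 9, whereas the series text has 8 in place of 9. They also differ on whether day 28 is counted from treatment or from tumour injection. Cells of 5 mice were pooled per arm and the pool was split into 3 libraries. The libraries of an arm are therefore technical splits of 1 pool, and arm and pool cannot be told apart. Every p-value rests on a spread between splits as fitted by the authors' model, not on a spread between mice.

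After antigen recognition, CD8 T cells can become short-lived cytotoxic effectors or long-lived memory cells, and a small set of transcription factors sets the balance. T-bet (encoded by Tbx21) and Eomes are related T-box factors that switch on cytotoxic and cytokine genes. Zeb2 and Blimp-1 (Prdm1) are repressors that act in terminal effector cells, while Id2 and Id3 hold E proteins in check, Id2 mainly in effectors and Id3 in memory precursors. BATF and IRF4 act together on sites opened by receptor signalling, Bhlhe40 supports cytokine production and mitochondrial function, and TOX sustains exhausted cells under chronic antigen.

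Levels are RPKM, reads scaled to exon length and to the size of the library. The authors deposited, for each treatment against isotype, only the larger of the 2 group means, with a fold change and its p-values. Low means are sums of whole reads, which allowed the reads of each library to be recovered for 8 of the 10 genes in the arms whose mean was deposited. Libraries are named by their size within the arm (smallest, middle, largest), because they cannot be tied to replicate numbers. They held between 14729713 and 42556869 reads. Where an arm's mean is not among the larger means, a level implied by the authors' fold change and library sizes is given and called implied. Among genes whose isotype mean is in the tables, such implied levels had a median error of 0.04 to 0.05 on the log2 scale at 5 RPKM or more. Under 5 RPKM the median error was 0.10 to 0.12 and the 90th percentile 0.36 to 0.40. These errors come only from genes with a treated mean above isotype in 1 comparison and the larger mean in isotype in the others. They were not measured for treated levels below isotype, or for an isotype level below every treated arm, where most implied levels lie. A gene is said to have passed where the authors' false discovery rate, called adjusted p, was under 0.05.

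Tbx21 was the member that passed in every comparison, and it was higher in all 3 treated arms than in isotype. In the anti-CTLA-4 arm the smallest, middle and largest libraries held 564, 578 and 1642 Tbx21 reads, or 15.4, 12.2 and 22.3 RPKM. All 3 libraries of that arm were high, with a mean of 16.6 ± 5.18 RPKM (SD over the 3 recovered libraries). In the anti-PD-1 DANA arm the libraries held 872, 951 and 107 reads, or 14.5, 14.3 and 1.35 RPKM, with a mean of 10.03 ± 7.52 RPKM (SD, 3 libraries). The largest library of that arm was the low one. In the combination the libraries held 1385, 21 and 84 reads, or 22.6, 0.264 and 0.793 RPKM, with a mean of 7.90 ± 12.8 RPKM (SD, 3 libraries). The smallest combination library gave 95.5% of that mean, and without it the mean was 0.529 RPKM. The isotype mean was the lower one in every table, and the 3 fold changes implied a level of 0.0558 to 0.0584 RPKM. The isotype libraries could not be read one by one. If all of the highest implied level lay in 1 of them, it would hold 0.175 RPKM, or 0.231 RPKM with the 90th percentile error of implied levels. The low combination libraries held 0.264 and 0.793 RPKM. That error was measured on genes whose isotype mean was the larger one in other comparisons, unlike Tbx21, and is no upper limit. A separation of isotype from every combination library was therefore not shown.

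By the authors' deposited table, Tbx21 rose by a log2 fold change of 7.27 ± 1.52 after anti-CTLA-4 (standard error implied by the p-value, adjusted p = 0.00204). The authors' deposited table gave a rise of 6.65 ± 1.52 after anti-PD-1 DANA (adjusted p = 0.00559). For the combination the authors' deposited table gave a rise of 6.97 ± 1.52 (adjusted p = 0.00162). The implied error was 1.52 in each comparison, although 1 library gave 44.7% of the anti-CTLA-4 mean and 95.5% of the combination mean. These p-values thus do not measure the spread within the arm they are given for. Fold changes are on the authors' scale, where the median tested gene stood at -0.62, -0.45 and -0.42 in the 3 comparisons, and scaling by library size would add 0.94, 0.82 and 0.11. Against isotype, 1 of 10 members passed in each comparison, as higher. Of all tested genes 4.23% passed after anti-CTLA-4 (2.74% higher, 1.49% lower), 3.75% after anti-PD-1 DANA (2.43% higher, 1.32% lower) and 7.53% after the combination (3.94% higher, 3.59% lower). With 10 members, 1 call is near these shares. At an unadjusted p under 0.05 there were 2, 3 and 3 members, against 22.9%, 23.1% and 23.2% of all tested genes. The members' median log2 fold changes were -0.32, -0.06 and 0.61, and 3, 5 and 5 of the 10 had a value above 0, or 7, 7 and 5 by library size. In bulk RNA, fewer cells that express a gene and less RNA per cell cannot be told apart. The 3 comparisons share the isotype libraries, so the 3 Tbx21 calls do not stand as separate support. None of the 3 passed the authors' Bonferroni adjustment (p = 0.0894, 0.629 and 0.234 in the authors' deposited table).

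**Figure D1:**
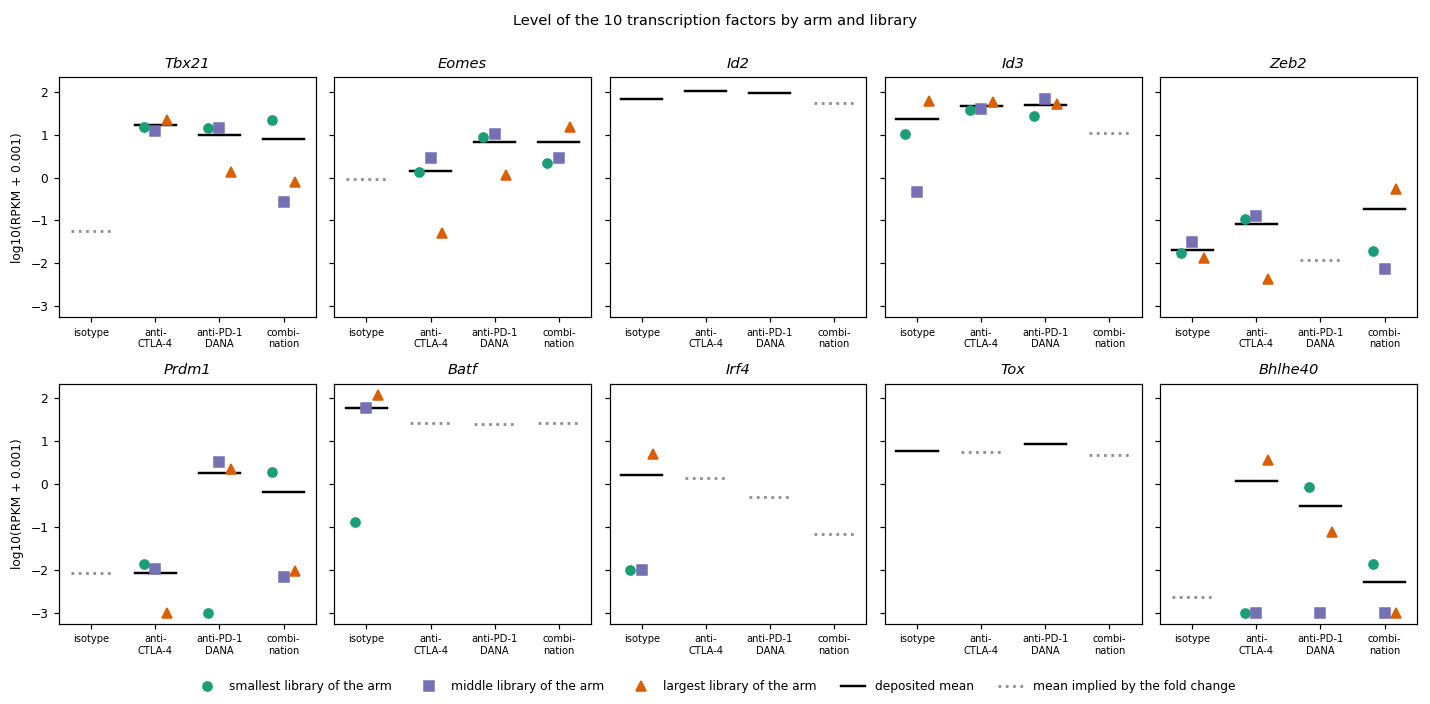
Level of each transcription factor by arm, as log10(RPKM + 0.001). Symbols are single libraries by size within the arm where whole reads were recovered, black lines are deposited group means and dotted lines are implied means. Tbx21 lay above 12 RPKM in all 3 anti-CTLA-4 libraries, whereas 1 combination library at 22.6 RPKM stood above the other two.

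Eomes, the paralogue of Tbx21, did not pass in any comparison. Its 3 anti-CTLA-4 libraries held 82, 231 and 6 reads, a mean of 1.43 ± 1.43 RPKM (SD, 3 libraries). In the anti-PD-1 DANA arm they held 886, 1150 and 149 reads, a mean of 6.75 ± 4.94 RPKM (SD, 3 libraries). The combination libraries held 222, 378 and 2704 reads, a mean of 6.77 ± 7.39 RPKM (SD, 3 libraries). For that mean alone 0.152 whole-read solutions were expected by chance. These 3 arms overlapped library by library, and the implied isotype level was 0.927 to 0.962 RPKM. In the authors' deposited table the log2 fold changes were -0.37 ± 1.57 after anti-CTLA-4 and 2.03 ± 1.57 after anti-PD-1 DANA (adjusted p = 1 each). That of the combination was 2.76 ± 1.57 in the authors' deposited table (adjusted p = 0.81). By library size the anti-CTLA-4 value was 0.57, so its sign depends on the scaling. In the combination, the smallest library was the high one for Tbx21 and the largest for Eomes. In the anti-PD-1 DANA arm, the largest library was the low one for both genes.

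The promoters of the T-box pair are shown because 1 gene passed and its paralogue did not. RefSeq promoter sequences (GRCm38.p6) matched 8 of the 10 members. The 250 bases before the RefSeq start are chr11:97115332-97115581 on the minus strand for Tbx21 and chr9:118477939-118478188 on the plus strand for Eomes. For Eomes the region in the authors' deposited table starts further downstream, at 118478212. The windows are printed 5′ to 3′, with capitals marking a match to CACCTG on either strand.
Tbx21: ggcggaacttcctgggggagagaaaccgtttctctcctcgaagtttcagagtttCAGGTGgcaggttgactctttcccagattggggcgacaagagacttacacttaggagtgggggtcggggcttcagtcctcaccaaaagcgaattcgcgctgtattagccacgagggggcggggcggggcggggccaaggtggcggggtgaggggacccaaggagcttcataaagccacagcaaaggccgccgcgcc
Eomes: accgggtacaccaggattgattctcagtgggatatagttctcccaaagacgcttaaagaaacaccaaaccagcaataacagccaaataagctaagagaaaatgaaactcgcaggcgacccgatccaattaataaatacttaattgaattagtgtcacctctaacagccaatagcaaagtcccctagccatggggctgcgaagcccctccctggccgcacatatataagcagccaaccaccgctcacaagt
CACCTG can be bound by E proteins, which Id2 and Id3 restrain, and by ZEB factors. It matched once in the Tbx21 window and not in that of Eomes. Among the other members it matched only in a Prdm1 window, and 17.2% of 32851 promoter windows of this length hold it. The T-box core TCACACC, searched on both strands, matched in neither, nor in any of the 11 member windows, against 3.33% of all windows. The AP-1 motif TGANTCA, bound by BATF with Jun proteins, matched in windows of Prdm1 and Zeb2 and in 6.75% of all windows. None of the 3 motifs contains another, and binding at these sites was not measured here.

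Genes that T-bet and Eomes are known to activate were read from a list of 16. After anti-CTLA-4, 1 of 16 passed as higher and 0 as lower, after anti-PD-1 DANA 2 and 0, and after the combination 3 and 0. Of all tested genes 2.74%, 2.43% and 3.94% passed as higher. By library size 2, 4 and 3 of the 16 passed as higher. The list medians, 0.92, 1.17 and 0.66, lay above the medians of all tested genes given for the same comparisons. At an unadjusted p under 0.05 there were 4, 6 and 6 of the 16, against 22.9%, 23.1% and 23.2% of all tested genes. Not all targets were higher. Ifng had its larger mean in isotype throughout, with -1.91, -2.56 and -0.42 in the authors' deposited table, and Il2rb was below 0 in each on the authors' scale. Prf1, the gene of the killer cell pore protein perforin, passed in all 3. For it the authors' deposited table gave log2 fold changes of 5.57 ± 1.33, 7.07 ± 1.33 and 5.34 ± 1.33 in the same order (adjusted p = 0.00774, 0.000363 and 0.00695). Gzmb, the protease granzyme B, passed after anti-PD-1 DANA, where the authors' deposited table gave 7.82 ± 2.28 (adjusted p = 0.0449). Both other calls were chains of cytokine receptors in the combination. The authors' deposited table gave 8.58 ± 2.23 for Il12rb2 of the interleukin-12 receptor (adjusted p = 0.0102) and 5.04 ± 1.39 for Il18rap of the interleukin-18 receptor (adjusted p = 0.0178).

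Library by library, the Gzmb reads lay where the Tbx21 reads lay in the anti-PD-1 DANA and combination arms. Gzmb had 547, 374 and 1 reads in the smallest, middle and largest anti-PD-1 DANA libraries. In the combination it had 138, 0 and 0 reads, all in the library that gave most of the Tbx21 mean. In the anti-CTLA-4 arm it had 1, 11 and 49 reads. Il12rb2 had 0, 852 and 1096 reads in the combination libraries, so its reads came from the 2 libraries with little Tbx21. In the anti-PD-1 DANA arm it had 0, 388 and 0 reads, all in the middle library, where Tbx21 was high. Reads of Prf1 and Il18rap per library were not recovered. These orders are a description over 3 libraries, and no test was made.

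Prdm1, which encodes the repressor Blimp-1, was nearly absent in 1 treated arm and present in libraries of the others. The anti-CTLA-4 libraries held 1, 1 and 0 reads, a mean of 0.0073 RPKM. The anti-PD-1 DANA libraries held 0, 483 and 402 reads, or 0, 3.29 and 2.29 RPKM. The combination libraries held 260, 1 and 2 reads, or 1.92, 0.00569 and 0.00856 RPKM. Isotype lay under the anti-CTLA-4 mean, which allows at most 3 reads over its 3 libraries. The reads thus came from 2 anti-PD-1 DANA libraries and 1 combination library. Csf1r, a receptor gene of myeloid cells, had 5, 831 and 820 reads in the same anti-PD-1 DANA libraries, and Xbp1 had 623, 1728 and 1533. Other myeloid markers differed from Csf1r there. Lyz2 had 1546, 1633 and 2643 reads, also where Prdm1 had 0, and Spi1 had a larger mean of 0 RPKM. In the combination Csf1r had 6, 3 and 55 reads and was not high where Prdm1 was. The part of other cells in the Prdm1 level was not tested. The smallest combination library gave 99.3% of that arm's mean, which was 0.00712 RPKM without it. The log2 fold changes in the authors' deposited table were -0.90 ± 2.39 after anti-CTLA-4 (adjusted p = 1), 7.15 ± 2.21 after anti-PD-1 DANA (adjusted p = 0.0682) and 6.28 ± 2.22 after the combination (adjusted p = 0.11). No value passed, the anti-CTLA-4 value was 0.04 by library size, and the sizes depend on the authors' fit because isotype was near 0. From the p-values of the authors' deposited table, the anti-PD-1 DANA value passed when adjustment covered tested genes only (adjusted p = 0.025) or after scaling by library size (adjusted p = 0.0224). With tested genes only, the combination value of the authors' deposited table passed too (adjusted p = 0.0404).

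Zeb2, a repressor of terminally differentiated effectors, was scarce in every arm. Isotype libraries held 8, 15 and 8 reads, a mean of 0.0199 ± 0.00963 RPKM (SD, 3 libraries). Anti-CTLA-4 libraries held 32, 49 and 2 reads, a mean of 0.0803 ± 0.0674 RPKM (SD, 3 libraries), and overlapped isotype through the largest library. Combination libraries held 9, 4 and 461 reads, of which the largest library gave 95.7% of the mean of 0.189 RPKM. Without that library the combination mean was 0.0123 RPKM, below isotype. The B cell marker Ms4a1 had 24, 3 and 768 reads in these combination libraries (94.4% of its mean from the largest) and Csf1r 6, 3 and 55 (79.3%). The part of such cells in the Zeb2 level was not tested. The authors' deposited table gave log2 fold changes of 1.05 ± 1.91 after anti-CTLA-4, -1.70 ± 1.93 after anti-PD-1 DANA and 3.19 ± 1.90 for both together (adjusted p = 1, 1 and 0.915).

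The inhibitors of E proteins were among the most abundant members, and neither passed. Id2 had deposited means of 103.4 RPKM in anti-CTLA-4 and 96.1 RPKM in anti-PD-1 DANA. A mean of 70.2 RPKM was assigned to isotype because the other tables implied 64.9 to 65.4 RPKM there, and the combination was implied at 54.1 RPKM. Id2 reads per library were not recovered. Its log2 fold changes of -0.27 ± 0.83, -0.26 ± 0.83 and -0.48 ± 0.83 in the authors' deposited table had the smallest errors of the 10 members (adjusted p = 1 each). By library size the first 2 were 0.67 and 0.56 and the third -0.38, so the direction of the first 2 depends on the scaling.

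Id3 reads were unevenly spread over the isotype libraries. Isotype libraries held 452, 20 and 3550 reads, or 10.5, 0.456 and 60.3 RPKM, and the largest gave 84.6% of the mean of 23.8 RPKM. Without that library the isotype mean was 5.49 RPKM. Anti-CTLA-4 libraries held 1022, 1362 and 3166 reads, a mean of 46.1 ± 11.8 RPKM (SD, 3 libraries). Anti-PD-1 DANA libraries held 1189, 3257 and 2946 reads, a mean of 48.9 ± 20.4 RPKM (SD, 3 libraries). Every library of both arms lay above the 2 smaller isotype libraries, and the largest isotype library lay within the anti-PD-1 DANA range and just above that of anti-CTLA-4. By chance 0.14 whole-read solutions were expected for the anti-CTLA-4 mean alone and 0.394 for that of anti-PD-1 DANA. These splits thus lean on the exon length that all recovered Id3 means fit. The combination was implied at 10.9 RPKM. In the authors' deposited table the log2 fold changes were -0.07 ± 1.18, 0.14 ± 1.18 and -1.23 ± 1.18 (adjusted p = 1 each), and the first was 0.88 by library size.

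**Figure D2:**
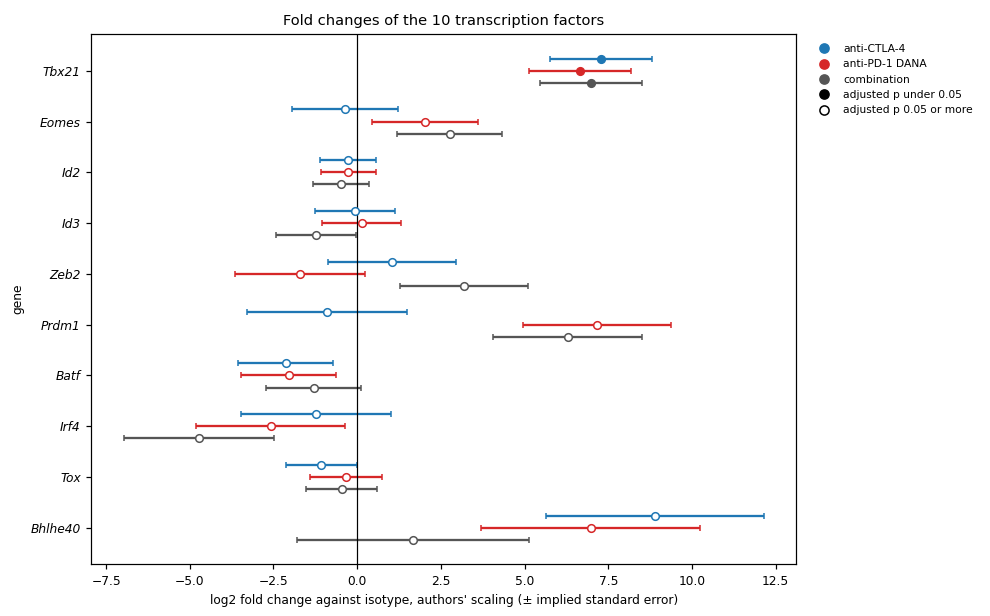
Log2 fold change against isotype on the authors' scale for each transcription factor, with bars of ± 1 implied standard error. Filled points passed an adjusted p of 0.05, which only the 3 Tbx21 values (6.65 to 7.27) did, and the bars of Bhlhe40 are the widest.

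Batf and Irf4, partners in receptor-driven activation, had their larger mean in isotype in all 3 tables. Batf isotype libraries held 3, 1398 and 3865 reads, or 0.131, 59.7 and 123.1 RPKM, a mean of 61.0 ± 61.5 RPKM (SD, 3 libraries). By this solution 1 isotype library was almost without Batf reads. It rests on a single mean, for which 0.0866 whole-read solutions were expected by chance at the exon length used. That length was 1 of 3 tried, so chance over all of them was higher and the split is uncertain. Treated arms were implied at 26.7 RPKM (anti-CTLA-4), 25.9 RPKM (anti-PD-1 DANA) and 26.6 RPKM (combination), inside the range of the isotype libraries. The log2 fold changes were -2.14 ± 1.41, -2.05 ± 1.41 and -1.30 ± 1.41 in the authors' deposited table (adjusted p = 1 each).

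Irf4 isotype libraries held 1, 1 and 771 reads, so the largest library gave 99.6% of the mean of 1.66 RPKM. Without it the isotype mean was 0.00875 RPKM, below all 3 implied treated levels of 1.37, 0.487 and 0.0675 RPKM. Irf4 had log2 fold changes of -1.23 ± 2.24, -2.59 ± 2.24 and -4.73 ± 2.25 in the authors' deposited table with adjusted p of 1, 1 and 0.461. The combination value had an unadjusted p of 0.0356. Xbp1, a plasma cell factor that other secretory cells also express, was concentrated in the same isotype library, with 8, 13 and 2979 reads. The authors' deposited table has it lower after the combination, with a log2 fold change of -5.13 ± 1.52 (adjusted p = 0.0323). Of 4 plasma cell markers, Xbp1 among them, Sdc1 and 1 other were listed at 0 and Jchain had a larger mean of at most 0.0314 RPKM. The part of other cells in the Irf4 level was not tested.

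Bhlhe40, a factor of cytokine-producing T cells, was seen in single libraries. The anti-CTLA-4 libraries held 0, 0 and 344 reads, so 1 library at 3.55 RPKM gave the whole mean of 1.18 RPKM. The anti-PD-1 DANA libraries held 66, 0 and 8 reads, a mean of 0.303 ± 0.46 RPKM (SD, 3 libraries). The combination held 1 read in all, and isotype, which lay lower, at most 1. A fold against isotype would rest on that single read, so the fitted values depend on the authors' model. They were 8.90 ± 3.26 after anti-CTLA-4 (adjusted p = 0.166), 6.97 ± 3.27 after anti-PD-1 DANA (adjusted p = 0.455) and 1.68 ± 3.47 after the combination (adjusted p = 1) in the authors' deposited table.

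Tox, a factor of exhausted T cells, did not pass in any comparison. Its means were 6.04 RPKM in isotype and 8.51 RPKM in anti-PD-1 DANA, with 5.53 and 4.71 RPKM implied for anti-CTLA-4 and the combination. Reads per library were not recovered. The log2 fold changes were -1.07 ± 1.07, -0.33 ± 1.07 and -0.47 ± 1.07 in the authors' deposited table (adjusted p = 1 each). By library size the anti-PD-1 DANA value was 0.49, so its sign depends on the scaling.

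Reads of single libraries shaped many of these means. Of 14 treated means of members with 20 or more reads, 5 (35.7%) came for 80% or more from 1 library. In the combination this held for 3 of 4, those of Tbx21, Zeb2 and Prdm1, in anti-CTLA-4 for 1 of 5 and in anti-PD-1 DANA for 1 of 5. Among other genes, sampled from those with a fitted value above 0 and at most 3000 reads, it held for 53.4% of 884 anti-CTLA-4 means, 56.1% of 871 anti-PD-1 DANA means and 66.3% of 519 combination means. The member means were not limited in that way, and the shares were not tested against each other. In isotype it held for 2 of 4 member means, those of Id3 and Irf4, both in the largest library. No library was the high one for every member: in the combination the smallest led for Tbx21 and Prdm1 and the largest for Eomes and Zeb2.

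**Figure D3:**
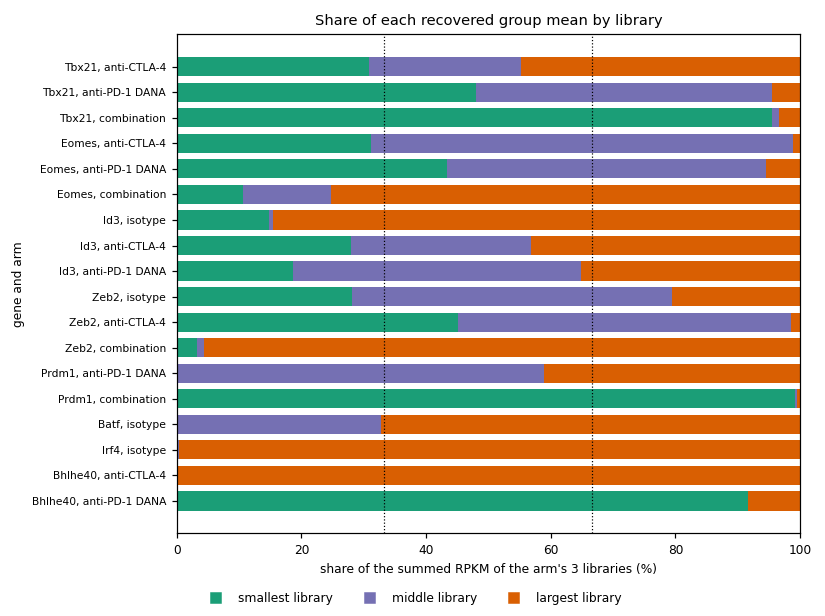
Share of the summed RPKM of an arm that came from each of its 3 libraries, for the 18 member means with 20 or more reads. Dotted lines mark equal shares. The Tbx21 bar is split 30.9%, 24.4% and 44.7% in anti-CTLA-4, whereas in the combination the smallest library takes 95.5%.

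Treatments were compared with each other through differences of their fold changes, in which isotype cancels. No member passed in any of the 3 pairs after Benjamini-Hochberg adjustment of this normal test of the difference. Of all tested genes 0.903% passed between the combination and anti-CTLA-4, 0.449% between the combination and anti-PD-1 DANA and 0% between the single antibodies. At an unadjusted p under 0.05 there were 2, 1 and 1 members, against 12.5%, 11.0% and 6.46% of all tested genes. Tbx21 differed by -0.30 (95% interval -3.29 to 2.69) between the combination and anti-CTLA-4. It differed by 0.32 (-2.67 to 3.31) between the combination and anti-PD-1 DANA, and by 0.62 (-2.36 to 3.61) between anti-CTLA-4 and anti-PD-1 DANA. These intervals span several-fold changes in both directions, so equal levels were not shown. The 4 values at an unadjusted p under 0.05 were Eomes, Prdm1, Zeb2 and again Prdm1. These differences and their adjusted p were computed here, since the authors compared each treatment with isotype alone. In the combination Eomes was 3.13 (interval 0.05 to 6.22) and Prdm1 7.19 (0.80 to 13.6) above anti-CTLA-4, with adjusted p of 1 and 0.836. Zeb2 was 4.89 (1.13 to 8.65) above anti-PD-1 DANA there, with an adjusted p of 0.631, and the largest combination library gave most of its reads. Prdm1 differed by -8.06 (-14.5 to -1.67) between anti-CTLA-4 and anti-PD-1 DANA, with an adjusted p of 1. All of these differences are on the authors' scale. By library size Eomes stood at 2.87 in the combination and 0.57 after anti-CTLA-4 against isotype, so its difference was smaller by that scaling.

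Transcription factors of other states were read from 3 lists, and their counts are near the shares of all tested genes that passed (1.49%, 1.32% and 3.59% as lower). Of 13 naive and memory factors, 1 passed as lower after anti-CTLA-4 and 1 after the combination, and 0 as higher. In the authors' deposited table Klf2, which keeps T cells recirculating, fell by 3.14 ± 0.69 after anti-CTLA-4 (adjusted p = 0.00344). Ets1, which supports T cell survival, fell by 1.90 ± 0.51 in the combination by the authors' deposited table (adjusted p = 0.0141). Anti-PD-1 DANA gave 0 calls on this list, with 4 members at an unadjusted p under 0.05. Of 13 activation and exhaustion factors, 12 of them tested, 0 passed in each comparison, with 2, 1 and 1 members at an unadjusted p under 0.05. Of 19 partners and upstream factors, among them Runx3, Stat4 and the E protein gene Tcf3, 0 passed, with 3, 2 and 5 at an unadjusted p under 0.05, and by library size 1 passed as higher after anti-CTLA-4. List medians were -1.16, -1.28 and -0.73 for naive and memory factors and -0.76, -0.80 and -0.83 for partners, below those of all tested genes. For activation and exhaustion factors they were -1.08, -0.73 and -0.21, the last above it.

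By a likeness measure, the genes closest to Tbx21 over its 3 log2 fold changes were Ppt2 (distance 0.22), Glb1 (0.24) and Gadd45b (0.42), among 7279 named genes with a larger mean of 1 RPKM or more. The measure is the Euclidean distance over 3 comparisons that share the isotype arm.

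CD8 T cell markers were abundant. Larger means of 7 such genes ran from 81.8 to 486 RPKM over the tables, and 0 passed, with 1, 1 and 0 at an unadjusted p under 0.05. RNA of other cell types was present as well. Of 8 B cell markers 3 (Ms4a1, Spib and Pou2af1) passed as higher after anti-CTLA-4, with larger means of 5.90 to 15.9 RPKM. For both other treatments 0 passed, with 2 and 1 at an unadjusted p under 0.05. The summed larger means of the 8 were 161 RPKM in the anti-CTLA-4 table, 62.2 in that of anti-PD-1 DANA and 92.1 in that of the combination. Spib, a B cell factor, had 566, 444 and 2211 reads in the anti-CTLA-4 libraries, where Tbx21 was high too, but 52, 6 and 6 in anti-PD-1 DANA. Other B cell markers were less low there. Ms4a1 had 972, 446 and 599 reads in anti-CTLA-4 and 109, 307 and 111 in anti-PD-1 DANA, and Pou2af1 had a larger mean of 2.27 RPKM in the anti-PD-1 DANA table. By library size 1 of the 8 passed as higher after anti-PD-1 DANA. Of 5 myeloid markers 2 passed as lower after anti-CTLA-4, 1 as higher after anti-PD-1 DANA and 1 as lower after the combination, and their summed larger means were 107, 72.4 and 63.1 RPKM. By the authors' deposited table Mpeg1 and C1qa changed by -9.18 ± 2.31 and -9.69 ± 2.42 on the log2 scale after anti-CTLA-4 (adjusted p = 0.0126 and 0.012). The isotype libraries held 1, 867 and 1 reads of C1qa, so the middle library gave 99.8% of its isotype mean. The authors' deposited table gave a rise of Csf1r by 8.44 ± 2.10 after anti-PD-1 DANA (adjusted p = 0.0126). In the combination Lyz2 fell by 4.26 ± 1.17 by the authors' deposited table (adjusted p = 0.0169). Its isotype libraries held 2725, 1775 and 16 reads. NK cells also express Tbx21 and Eomes, and 2 of 3 NK cell markers, Ncr1 among them, were listed at 0 in every table. The third, Klrb1c, had a larger mean of 1.39 RPKM in the anti-PD-1 DANA table and at most 0.0708 RPKM in the others. Of 3 CD4 and regulatory T cell markers, 1 passed. The authors' deposited table gave a rise of Cd4 by 8.23 ± 2.36 after anti-CTLA-4 (adjusted p = 0.039). Cd4 had 132, 401 and 0 reads in the smallest, middle and largest anti-CTLA-4 libraries. Foxp3 and Zbtb7b stood at -0.11 and -1.35 in that comparison. The part of B, myeloid, NK, CD4 T or other cells in the levels of the 10 members was not tested.

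By the regions listed in the authors' deposited table (GRCm38), Tbx21 (ENSMUSG00000001444) lies on chromosome 11 at 97098071 to 97115331, Eomes (ENSMUSG00000032446) on chromosome 9 at 118478212 to 118486132 and Prdm1 (ENSMUSG00000038151) on chromosome 10 at 44437177 to 44528501. Zeb2 lies on chromosome 2 at 44983632 to 45117395, Id3 on chromosome 4 at 136143497 to 136145755 and Irf4 on chromosome 13 at 30749226 to 30766927. Batf lies on chromosome 12 at 85686669 to 85709087 and Bhlhe40 on chromosome 6 at 108660629 to 108666925. Id2 lies on chromosome 12 at 25093801 to 25096092 and Tox on chromosome 4 at 6686353 to 6991557. All 10 are annotated as genes over these spans, exons and introns included.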

How the data were processed

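RNA was measured in 12 libraries, 3 per arm, amplified from 0.25 ng of RNA with 21 cycles of pre-amplification, per the labels' protocols. Per the labels' protocols, CLC Genomics Workbench made the alignment and the quantification. The submitters' processing notes name the build GRCm38.p5, while program version, annotation and statistical model were not given in the sources used here. Each deposited table holds, per gene, the larger of both group means in RPKM (unit read from the values), a log2 and a signed linear fold change, and p-values: raw, as false discovery rate and after Bonferroni, over 48709 listed genes. No value per library is in these tables, so the count models considered could not be fitted and the authors' p-values are the main test.

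Standard errors were implied by the p-value under a Wald test. Library sizes are the whole numbers that turn low means into 1 read (exon lengths from GENCODE M21). Reads of a member were solved at 1 exon length that gave whole reads for every deposited mean. The lengths tried came from sets of its transcripts within the deposited region. At most 0.1 solutions by chance, as the product over all deposited means of the gene, were allowed at the length used. Chance over the other lengths tried was not added. Splits of single means could exceed 0.1. Among them were Eomes in the combination (0.152), Id3 in anti-CTLA-4 (0.14) and anti-PD-1 DANA (0.394) and Xbp1 in anti-PD-1 DANA (0.197). Lyz2 had 0.199 in anti-CTLA-4, 0.174 in anti-PD-1 DANA and 0.131 in isotype. Over a sample of other genes, 88.2 to 91.3% of means were solved, against 0.0998 to 0.342% with lengths off by 1 base. Library-size scaling adds 0.94, 0.82 and 0.11 to log2 fold changes, in the order in which the report names treatments. Differences between treatments took 1 common error where the 3 errors lay within 5% and an upper bound otherwise. Whole-read solving and the difference test were tested on simulated data. All members, lists and tests were chosen with earlier results of these data known. Members are all named; other lists name genes that passed, at most 4 a list, and genes needed beside a result, chosen after their values were seen, and the 3 genes nearest to a member that passed. Markers of CD8 T, B, plasma, myeloid, dendritic, NK, CD4 and regulatory T cells were listed; of dendritic markers 0 of 5 passed, with 2, 2 and 1 at an unadjusted p under 0.05, and of CD4 and regulatory markers Cd4 passed as higher after anti-CTLA-4. Python 3.11.15, scipy 1.17.1 and pandas 2.3.3 were used.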

Additional observations from a re-analysis of the deposited data

How the results depend on the processing

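The number of members that passed against isotype, 1 in each comparison, was 0 in each with the authors' Bonferroni p-value. Adjusted over tested genes only, it was 2 after anti-PD-1 DANA and 2 after the combination, Prdm1 being added. With scaling by library size it was 2 after anti-PD-1 DANA. The count of T-bet and Eomes targets that passed as higher, 1 after anti-CTLA-4 and 2 after anti-PD-1 DANA, was 2 and 4 by library size. Without genes resting on 1 library the number of members that passed was 0 after the combination, where Tbx21 was left out. A larger mean of 5 RPKM or more kept 1 member in each comparison. The counts of 0 between treatments were 0 under the upper bound of the error, adjustment over tested genes and library size scaling. Leaving out each library in turn, chosen after the data had been seen, moved no recovered mean by more than its SD, which 3 libraries cannot do, so this says nothing of stability. Refits that leave out a replicate, use a replicate block, use DESeq2 or filter low counts were not run, because the tables hold no value per library. No paired analysis was possible because the tables hold comparisons and carry no replicate numbers. Depth limits Prdm1, Zeb2 and Bhlhe40, whose lower arms held 0 to 15 reads per library where recovered.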
